A study of Homo sapiens with 6 samples.

Results

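The comparison set A549 cells transfected with a synthetic copy (a mimic) of miR-608 directly against A549 cells transfected with one of miR-552-3p, both of which are microRNAs. It used 2 arrays of miR-608 and 2 arrays of miR-552-3p out of 6 arrays in the study, and the remaining 2 arrays, from cells given a negative control mimic, served to say on which side of the control each mimic lay. A549 is an established human lung adenocarcinoma line. All 3 groups were grown in the same medium and transfected with Lipofectamine RNAiMAX, and total RNA was taken 24 h later and hybridised to Illumina bead arrays. Of 47319 probes, 19401 entered because their detection p was below 0.05 on 2 or more of the 4 mimic arrays. After 1 probe was kept per named gene, 15771 rows were tested, of which 11307 were named genes and 4464 were probes with no gene name. The model is 1 cell line at 1 time after a transfected mimic, and the labels give neither the dose of the mimics nor whether each array had a culture of its own. The p-values therefore measure only how far these samples spread, and that spread may be technical. Because RNA was taken from whole cultures, fewer cells carrying a transcript and less transcript per cell cannot be told apart.

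MicroRNAs are short RNAs that guide an Argonaute protein to messenger RNAs with a matching site, most often in the 3' untranslated region, and thereby lower the stability or translation of those messages. The match rests mainly on the seed near the 5' end of the microRNA, so microRNAs with different seeds bind largely different sets of messages. A mimic is a synthetic duplex that loads the mature strand into this machinery after transfection, and genes that are not targets can change as well when a target is a regulator.

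The mature strands are shown because their seeds are the part that selects targets. Both were taken from RefSeq on GRCh38.p14, in the 5' to 3' direction, with the seed (bases 2 to 8) in capitals. MIR608 lies on the plus strand at chr10:100975000-100975024 and MIR552, from which the 3p strand comes, on the minus strand with its mature 3p bases at chr1:34669614-34669634.
hsa-miR-608: aGGGGUGGuguugggacagcuccgu
hsa-miR-552-3p: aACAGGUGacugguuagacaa
The strand of miR-608 has 25 bases with 64.0% G or C, against 21 bases and 42.9% for miR-552-3p. The seed of miR-608 holds 6 G among its 7 bases and that of miR-552-3p holds 3, and the seeds carry the same base at 2 of 7 positions. A message site that pairs with the whole seed reads, as DNA, CCACCCC for miR-608 and CACCTGT for miR-552-3p. No untranslated region was searched for these sites here.

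The labels were checked against markers of the line. The epithelial genes EPCAM, KRT8, KRT18 and KRT19 were all detected, while 5 of 8 markers of alveolar type II cells, the cell type A549 is often used to model, were not among the tested rows (SFTPA1, SFTPA2, SFTPB, SFTPC and NAPSA). Of 8 markers of fibroblasts and endothelium only COL1A1 was tested, at 0.25 (adjusted p = 0.0416) between the mimics, and that call was lost under 14 alternatives, among them the omission of any 1 of the 6 arrays. Of 6 immune markers 3 were tested, and the leukocyte marker PTPRC, the T cell marker CD3E and the macrophage lysozyme LYZ were not among the tested rows. The median signal per array was 181.7 to 200.7, with 18550 to 19758 detected probes. The median SD between arrays of a group was 0.0797 on the log2 scale with miR-608, 0.0789 with miR-552-3p and 0.0817 with the control mimic, and the number of arrays limits the precision.

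Between the mimics, 3280 of 15771 rows were higher with miR-608 (20.8%) and 3194 were lower (20.3%), 6474 in all or 41.1%. Differences are given throughout as miR-608 minus miR-552-3p on the log2 scale of normalised intensity with their SE, from limma with 2 arrays per group, and a row was called when its Benjamini-Hochberg adjusted p over all rows was under 0.05 (two-sided). Of the called rows, 755 were at least 2-fold higher with miR-608 (4.79% of all tested rows) and 637 at least 2-fold lower (4.04% of all tested rows). The detection filter admitted 826 rows through 1 mimic alone, detected on both of its arrays and on neither of the other mimic. Of these 547 were called, in a direction that the filter favours. The arrays of the mimics did not overlap for 11294 rows, or 71.6%, so lack of overlap by itself sets few genes apart. The median difference over all rows was -0.01 and the median size of a difference was 0.30. Quantile normalisation gives every array the same distribution, which keeps the median difference small by construction. In the same fit miR-608 against the control gave 2589 higher and 2534 lower rows (16.4% and 16.1%), and miR-552-3p against the control 2633 higher and 2799 lower (16.7% and 17.7%). These last comparisons share the control arrays, so each gene's values in both are given side by side and no likeness between them is read. Leaving out replicate 1 of miR-552-3p reduced the called rows to 4551, and dropping the detection filter to 4472.

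**Figure D1:**
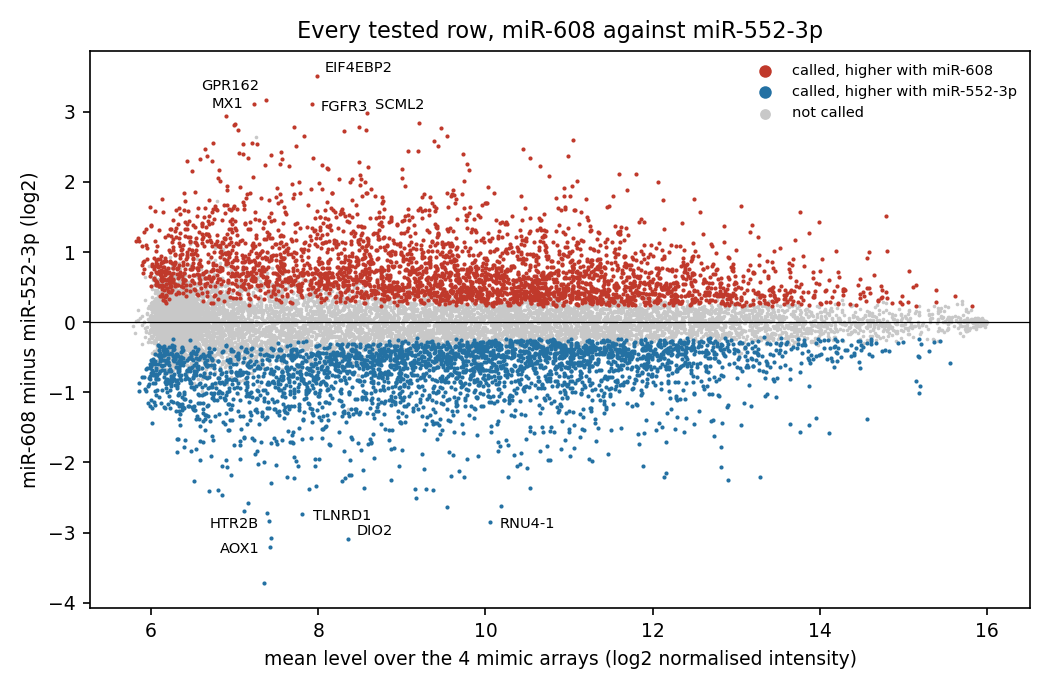
Each dot is 1 of the 15771 tested rows, with the mean level over the 4 mimic arrays on the x axis (log2 normalised intensity) and the difference miR-608 minus miR-552-3p on the y axis (log2). Red rows were called higher with miR-608 (3280) and blue rows called higher with miR-552-3p (3194). EIF4EBP2 stands at the top, and of the named genes AOX1 stands lowest.

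The widest difference upward belonged to EIF4EBP2, a repressor of translation that binds the cap-binding protein eIF4E. Its level was 9.72 and 9.75 on the miR-608 arrays, 6.0 and 6.45 on the miR-552-3p arrays and 8.43 and 8.13 on the control arrays. Both miR-608 arrays lay above both control arrays, and both miR-552-3p arrays lay below them, 1 of them under the detection limit. The difference was 3.51 ± 0.18 (adjusted p = 0.000392). The antiviral GTPase MX1, an interferon-induced protein, read 8.73 and 8.84 on the miR-608 arrays, 5.74 and 5.61 on the miR-552-3p arrays and 6.81 and 6.99 on the control arrays. No group overlapped another, and miR-552-3p was below detection on both arrays, so MX1 was at least 5.98-fold higher with miR-608 (adjusted p = 0.000313). Such bounds set the mean of the brighter group against, on each dim array, the higher of the lowest detected level and the probe's own level. The orphan receptor GPR162 was at least 6.73-fold higher by the same measure, C9orf152 at least 4.49-fold and the autophagy protein WIPI2, which binds phosphoinositides on forming autophagosomes, at least 4.57-fold (adjusted p = 0.000313, 0.000313 and 0.000369).

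The growth factor receptor FGFR3 was higher with miR-608 by 3.11 ± 0.24, with 1 of 2 miR-552-3p arrays detecting it. The Polycomb protein SCML2 differed by 2.98 ± 0.15, the phosphatase CTDSPL by 2.84 ± 0.09 and the EGF receptor ligand TGFA by 2.79 ± 0.13. The calpain CAPN5 differed by 2.78 ± 0.17, with 1 of 2 miR-552-3p arrays detecting it. For SCML2, CTDSPL, TGFA and CAPN5 adjusted p lay between 0.000313 and 0.000504. At the other end, AOX1, an aldehyde oxidase, was detected only with miR-552-3p: it read 5.79 and 5.85 on the miR-608 arrays, 9.03 and 9.01 on the miR-552-3p arrays and 5.44 and 5.60 on the control arrays. It was at least 6.92-fold lower with miR-608 (adjusted p = 0.000313). The deiodinase DIO2, which converts thyroid hormone to its active form, read 6.87 and 6.75 on the miR-608 arrays, 10.07 and 9.74 on the miR-552-3p arrays and 9.23 and 8.98 on the control arrays, a difference of -3.09 ± 0.15 (adjusted p = 0.000369). The serotonin receptor HTR2B was at least 6.05-fold lower with miR-608. TLNRD1, a protein with a talin rod domain, differed by -2.74 ± 0.07 and the membrane ubiquitin ligase MARCHF4 by -2.62 ± 0.08. CGAS, the sensor of DNA in the cytosol, differed by -2.73 ± 0.34 with 1 of 2 miR-608 arrays above detection. Noncoding RNAs also stood at this end, with the spliceosomal RNA RNU4-1 at -2.84 ± 0.32, the box H/ACA small nucleolar RNA SNORA62 at -2.50 ± 0.09 and SNORA28 at least 4.67-fold lower. The calcium-binding calretinin gene CALB2 differed by -2.64 ± 0.08, but its second probe read 0.43 and was not called.

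Genes on opposite sides of the control were those called between the mimics whose means lay at least 0.5 from the control mean in opposite directions with no overlap among the 3 groups. This held for 165 rows above the control with miR-608 and below it with miR-552-3p (1.05% of all rows, 143 named genes), and for 119 rows the other way round (0.755%, 100 named genes). The median difference between the mimics was 1.63 in the one set and -1.56 in the other, values that the rule itself makes large. In the first set 146 rows were also called in both comparisons with the control, and in the second 94. The rule favours these counts too, since it selects rows by the same distances from the same control arrays. At the threshold, KCTD6 was just inside with 0.5006 for the smaller of its distances and GAB2 just outside with 0.49995. Without background correction the sets held 75 and 47 rows, and with the authors' log2 values 75 and 46.

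Among the 6 largest of the genes up with miR-608 and down with miR-552-3p, EIF4EBP2 differed from the control by 1.46 under miR-608 and by -2.06 with miR-552-3p. SCML2 read 10.10 and 10.04 on the miR-608 arrays, 7.28 and 6.90 on the miR-552-3p arrays and 8.49 and 8.69 on the control arrays. Its miR-608 arrays lay highest and its miR-552-3p arrays lowest, at 1.48 and -1.50 from the control. MX1 stood 1.88 above the control on the log2 scale with miR-608 and was at least 1.62-fold below it with miR-552-3p. On the same scales GPR162 was 0.87 (log2) above with miR-608 and at least 3.69-fold below with miR-552-3p, WIPI2 0.87 (log2) above and at least 2.51-fold below, and C9orf152 1.17 (log2) above and at least 1.99-fold below. TGFA and CAPN5 had the same pattern, TGFA with 1.27 for miR-608 and -1.52 for miR-552-3p.

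Further genes of this set were picked from its 143 named genes after their values were seen, and no shared role was tested. IFNAR1, a subunit of the receptor for type I interferon, read 9.48 and 9.63 on the miR-608 arrays, 7.65 and 7.47 on the miR-552-3p arrays and 8.98 and 9.0 on the control arrays. Its groups did not overlap, and the difference between the mimics was 2.00 ± 0.10. IRF9, the DNA-binding subunit of the complex that activates interferon-stimulated genes, stood at 0.77 for miR-608 and -0.69 for miR-552-3p against the control, and the cytokine receptor IL27RA at 0.76 and -0.69. DCP2, the enzyme that removes the cap of messenger RNAs, differed by 2.59 ± 0.08 between the mimics, at 1.41 and -1.19 from the control. EDEM1, which directs misfolded glycoproteins of the endoplasmic reticulum to degradation, differed by 2.77 ± 0.14, and the clock repressor CRY2 by 1.48 ± 0.11.

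Down with miR-608 and up with miR-552-3p, DIO2 stood at -2.29 from the control for miR-608 and 0.80 for miR-552-3p. TLNRD1 read 6.46 and 6.42 on the miR-608 arrays, 9.14 and 9.22 on the miR-552-3p arrays and 7.87 and 7.91 on the control arrays. The arrays of each group lay close together, with miR-608 lowest and miR-552-3p highest. HTR2B was at least 2.32-fold below the control with miR-608 and 1.38 above it on the log2 scale with miR-552-3p. SNORA28 was at least 1.18-fold below with miR-608 and 1.99 (log2) above with miR-552-3p. CGAS stood at -1.93 and 0.79, and CALB2 at -1.50 and 1.13 by its brighter probe. Against the control, neither CGAS with miR-552-3p (adjusted p = 0.134) nor SNORA28 with miR-608 (adjusted p = 0.13) was called, so each was called on 1 side only. Further genes of the set, named after their values were seen, included the actin-regulated SRF coactivator MRTFA, at -1.50 and 0.69, the focal adhesion protein ZYX, at -0.88 and 0.64, the Notch ligand JAG1, at -0.52 and 0.52, the elongation factor ELL2, at -1.13 and 1.00, the kinase PIM2, at -0.92 and 1.14, and the arginine methyltransferase PRMT6, at -0.85 and 1.41. In each of these 6 pairs the first value is miR-608 minus control and the second miR-552-3p minus control.

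**Figure D2:**
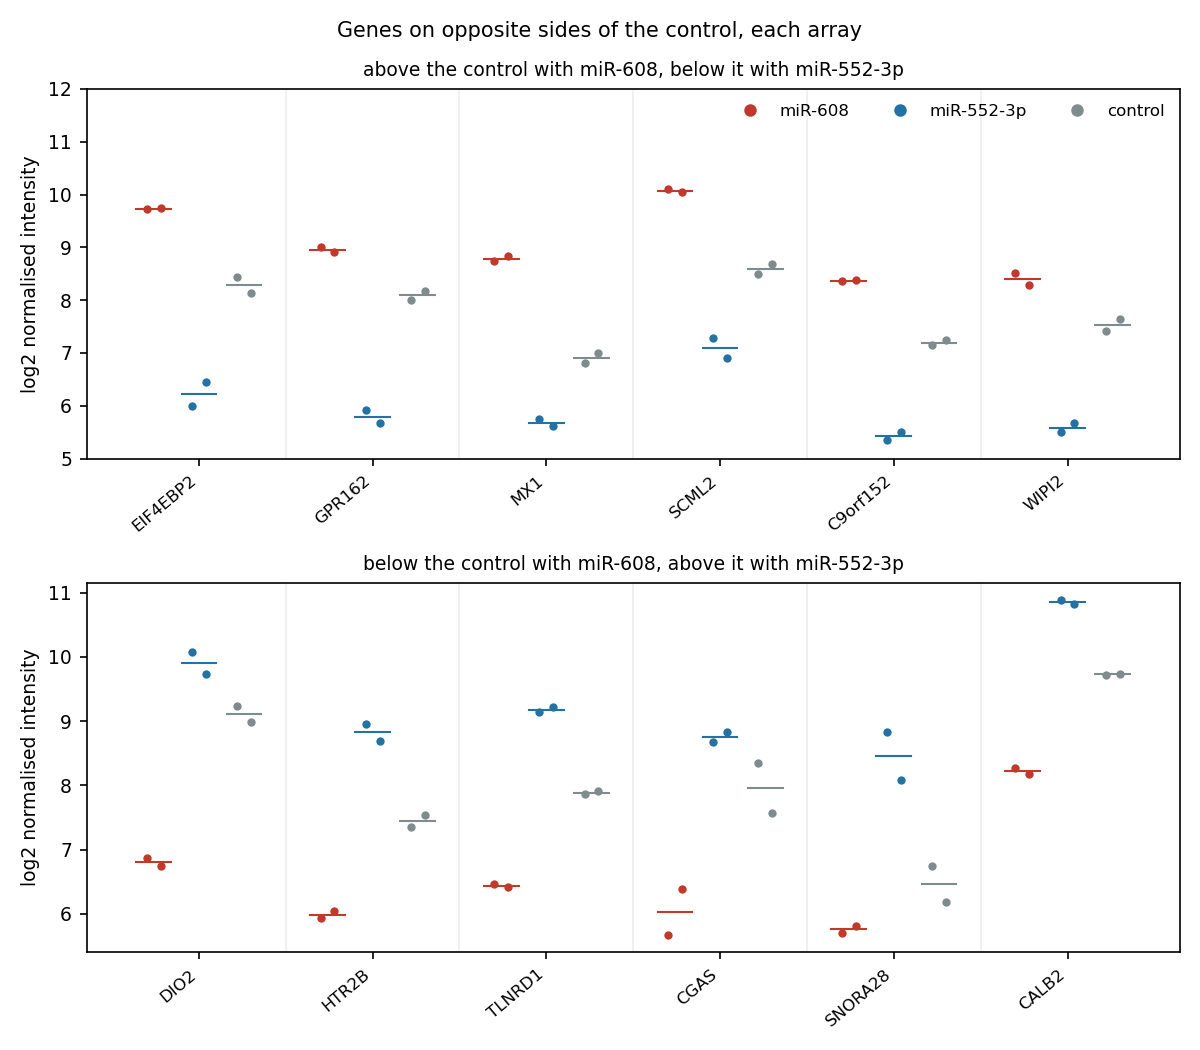
Level of the 6 genes with the largest difference in each opposite set, on the y axis as log2 normalised intensity, with 1 dot per array and a bar at the mean of the 2 arrays of miR-608 (red), miR-552-3p (blue) and control (grey). In the upper panel every red dot lies above the grey ones and every blue dot below them, and in the lower panel the order is turned round.

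Genes moved by one mimic alone were those called between the mimics where one mimic mean lay at least 1 from the control mean, with its arrays apart from the control arrays, and the other mimic mean within 0.25 of it. For miR-608 this gave 72 rows upward (0.457%, 63 named genes) and 164 downward (1.04%, 135 named genes). For miR-552-3p it gave 84 upward (0.533%, 65 named genes) and 220 downward (1.39%, 183 named genes). At the threshold, ARHGAP22 was just inside the miR-608 sets with a distance of 1.00 and ZC3H4 just outside with 0.998, and EHMT2 was just inside the miR-552-3p sets and SOX9 just outside with 0.999. Without background correction the 4 counts were 22, 82, 41 and 117 in the same order.

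Upward with miR-608 alone, the interferon-induced IFI27 read 8.27 and 8.25 on the miR-608 arrays, 5.81 and 5.88 on the miR-552-3p arrays and 6.08 and 5.91 on the control arrays. It was detected on both miR-608 arrays and on no other, at least 4.16-fold above miR-552-3p (adjusted p = 0.000313) and at least 4.19-fold above the control. CCL20, a chemokine that draws dendritic cells and lymphocytes through CCR6, read 10.01 and 10.04 on the miR-608 arrays, 8.02 and 7.93 on the miR-552-3p arrays and 8.21 and 8.21 on the control arrays. The miR-608 arrays lay far above the others, and the difference between the mimics was 2.05 ± 0.07. DENND2A, an exchange factor for a RAB protein, differed by 1.97 ± 0.18. The collagen crosslinking enzyme LOXL4 was at least 3.2-fold higher with miR-608 than with miR-552-3p, GCOM1 at least 2.09-fold and the guanine nucleotide exchange factor ARHGEF4 at least 1.74-fold.

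Downward with miR-608 alone, the RNA-binding protein SAMD4B read 6.80 and 6.60 on the miR-608 arrays, 9.07 and 9.10 on the miR-552-3p arrays and 9.08 and 9.13 on the control arrays, a difference of -2.38 ± 0.09 (adjusted p = 0.000316). The miR-552-3p and control arrays lay together, and both miR-608 arrays lay far below them. CDCA3, which helps mitotic entry by promoting the destruction of a CDK inhibitory kinase, differed by -2.21 ± 0.11, the crosslinking transglutaminase TGM2 by -2.07 ± 0.07, the cytoskeletal kinase PAK4 by -2.05 ± 0.10 and the cytochrome b5 reductase CYB5R3 by -2.05 ± 0.07. PAK4 and CYB5R3 each had a second probe that was called in the same direction, at -2.06 and -2.04. For TGM2, 2 other probes were also called lower than with miR-552-3p, at -0.73 and -1.19, but lay above the control with miR-608, at 1.32 and 0.46, and with miR-552-3p, at 2.05 and 1.65, so its place among genes down with miR-608 alone rests on 1 probe. The RNA methyltransferase TRMT2B differed by -2.36 ± 0.47 (adjusted p = 0.0133), with miR-608 arrays that disagreed, at 6.62 and 8.12, and its call was lost without either miR-552-3p array.

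Upward with miR-552-3p alone, MARCHF4 read 8.93 and 8.84 on the miR-608 arrays, 11.53 and 11.47 on the miR-552-3p arrays and 9.14 and 9.03 on the control arrays, so that miR-608 and control lay together and miR-552-3p above them. The difference was -2.62 ± 0.08 (adjusted p = 0.000313). CREB5, a transcription factor that pairs with JUN, differed by -2.39 ± 0.09, the carboxypeptidase CPA4 by -2.19 ± 0.19, the hormone receptor AMHR2 by -2.06 ± 0.16 and sarcolipin (SLN), an inhibitor of the muscle calcium pump, by -1.88 ± 0.10. The small GTPase ARL14 was detected with miR-552-3p alone, and miR-608 was at least 3.18-fold lower.

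Downward with miR-552-3p alone, CTDSPL read 10.58 and 10.68 on the miR-608 arrays, 7.87 and 7.71 on the miR-552-3p arrays and 10.58 and 10.69 on the control arrays. The miR-608 and control arrays lay together and the miR-552-3p arrays far below, with a difference between the mimics of 2.84 ± 0.09 (adjusted p = 0.000313). The endoplasmic reticulum protein EI24 differed by 2.45 ± 0.11, GET1, a receptor for the insertion of tail-anchored proteins, by 2.40 ± 0.12, RBBP5, a core subunit of H3K4 methyltransferases, by 2.34 ± 0.08, and TSPYL5 by 2.24 ± 0.24. A second GET1 probe was called in the same direction at 2.22. The sphingosine 1-phosphate receptor S1PR5 was at least 3.14-fold higher with miR-608 than with miR-552-3p, which lay at least 2.91-fold below the control. JAK1, the kinase of the type I interferon receptor, and MYD88, the adaptor of Toll-like receptors, belonged to this set too. Against the control JAK1 stood at 0.07 for miR-608 and -1.11 for miR-552-3p, and MYD88 at 0.00 and -1.18. They are named after their values were seen.

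**Figure D3:**
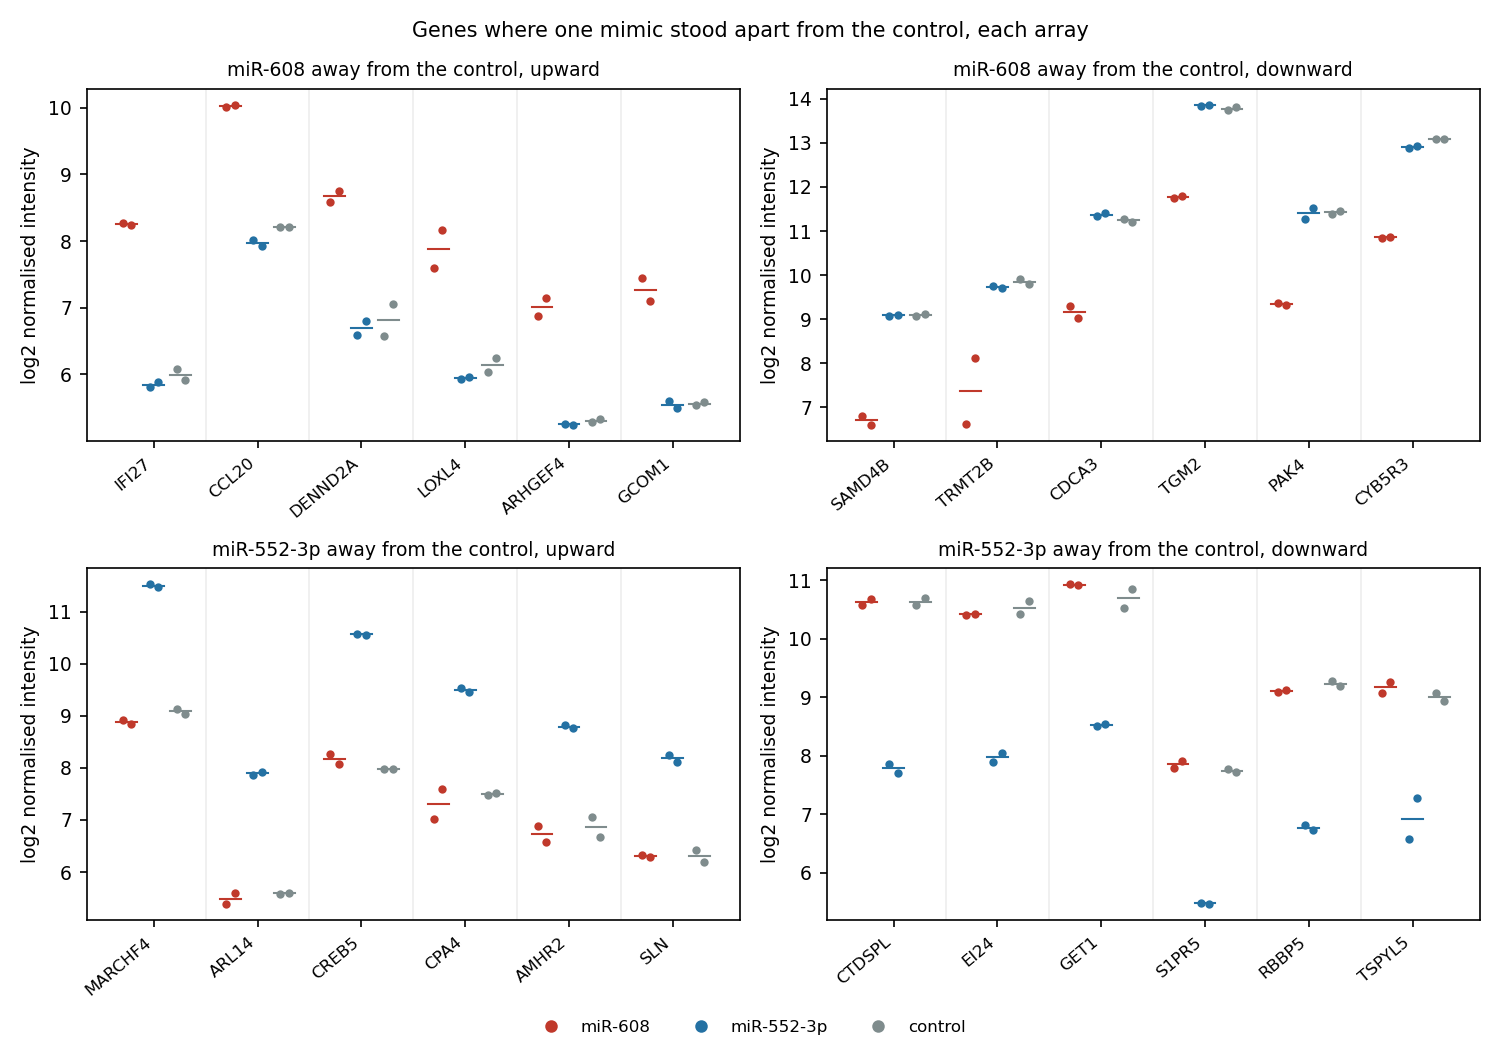
Level of the 6 genes with the largest difference between the mimics in each one-mimic set, on the y axis as log2 normalised intensity, with 1 dot per array and a bar at the mean of the 2 arrays of each group. In the upper panels the red miR-608 dots stand away from blue and grey, and in the lower panels the blue miR-552-3p dots stand away from red and grey.

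Of 34 gene lists, 29 had 5 or more tested members and are set out below by role, to be read against the 20.8% of all rows higher and 20.3% lower. For each list the 4 called members with the smallest p were named by rule, and other members are named after their values were seen. Counts in several lists of few members moved by over 1.5 times when 1 array was left out, with the values in the closing section. Some members passed the detection filter through 1 mimic alone, which favoured their direction. There were 4 in the interferon list, 3 in the BCL2 family and 2 in the EGFR list. Lists of the cyclin axis, other receptor kinases, AP-1, p38 and JNK kinases, urokinase, epithelial junction, mesenchymal and U4 genes had 1 each.

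**Figure D4:**
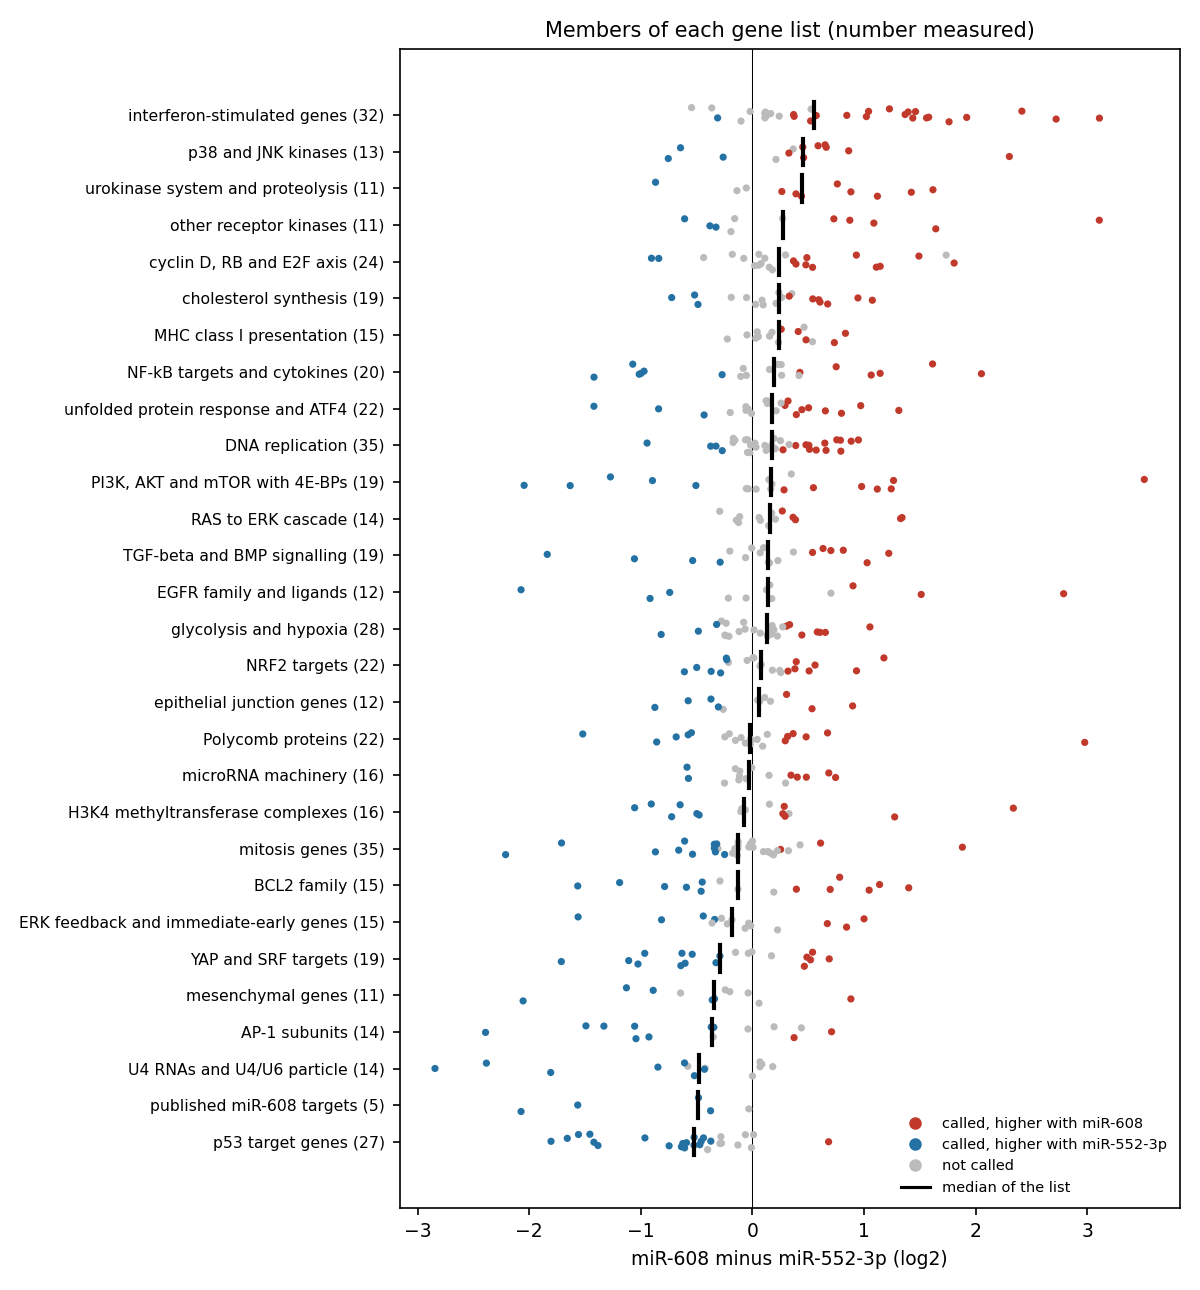
Difference miR-608 minus miR-552-3p (x axis, log2) of every tested member of the 29 lists with 5 or more of them, with the number in brackets. Red members were called higher with miR-608, blue members called higher with miR-552-3p and grey members not called, and the black bar is the median of the list. Interferon-stimulated genes have the highest median, 0.55, and p53 target genes the lowest, -0.52.

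Interferon-stimulated genes are switched on by the JAK and STAT pathway or by IRF factors when cells sense interferon or foreign nucleic acid. Of 32 tested members, 19 were higher with miR-608 than with miR-552-3p, 1 was lower and 12 were not called, with a median difference of 0.55. Against the control the median was 0.37 for miR-608 and -0.39 for miR-552-3p. The other 10 of the 42 members were not among the tested rows. The antiviral translation inhibitor IFIT1 read 9.72 and 9.63 on the miR-608 arrays, 6.86 and 7.05 on the miR-552-3p arrays and 8.98 and 8.93 on the control arrays. Its arrays with miR-608 lay highest and those with miR-552-3p lowest, with a difference of 2.72 ± 0.09 (adjusted p = 0.000313). IFI6, a mitochondrial protein, read 12.10 and 12.06 on the miR-608 arrays, 10.28 and 10.35 on the miR-552-3p arrays and 10.68 and 10.79 on the control arrays, a difference of 1.76 ± 0.08 (adjusted p = 0.00035). The membrane protein IFITM2, which blocks virus entry, differed by 1.92 ± 0.08, at 0.13 for miR-608 and -1.79 for miR-552-3p against the control.

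The called members reached their difference in unlike ways. MX1, IFIT1, IRF9 and UBE2L6, the conjugating enzyme for ISG15, lay above the control with miR-608 and below it with miR-552-3p, UBE2L6 at 0.35 and -0.69 with a second probe not called between the mimics (0.81). The ubiquitin-like ISG15 and the transcription factor IRF7 were high with miR-608, at 1.54 and 1.40 from the control, and at 0.10 and -0.16 with miR-552-3p. IFITM2, IFIT2 and the scramblase PLSCR1 stood at 0.13, 0.05 and 0.23 from the control for miR-608 and were low for miR-552-3p, at -1.79, -1.18 and -1.35. The RNA sensors RIGI and IFIH1 were not called between the mimics, at 0.16 and -0.10, and IFI35 was called lower with miR-608, at -0.31. Besides MX1, 3 members were detected on both miR-608 arrays and on neither miR-552-3p array, namely IFI27, given above, OASL, which was at least 1.39-fold higher, and SAMD9L, at least 1.08-fold higher. These 4 members passed the detection filter only through the miR-608 arrays, where they were high, so their direction was favoured by the filter. The count of 19 was 15 without miR-552-3p replicate 2.

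The promoters of 3 called members are shown because interferon-activated factors bind a repeated GAAA element there. The motif searched was GAAA, any 2 bases and GAAA again, on both strands and counting overlaps, in the 250 bases before and 50 after each start. It stood in 1195 of 27305 promoters in the RefSeq table (4.38%), and in 18 of the 26 tested list members with an entry (69.2%). It was held by 11 of 14 members called higher with miR-608 (78.6%) and by 7 of 12 others (58.3%). The lines give the 250 bases before the start on GRCh38.p14, in the direction of the gene, with the motif in capitals, for IFIT1 (chr10:89392373-89392622, plus strand), IFI6 (chr1:27672193-27672442, minus strand) and ISG15 (chr1:1013247-1013496, plus strand).
IFIT1: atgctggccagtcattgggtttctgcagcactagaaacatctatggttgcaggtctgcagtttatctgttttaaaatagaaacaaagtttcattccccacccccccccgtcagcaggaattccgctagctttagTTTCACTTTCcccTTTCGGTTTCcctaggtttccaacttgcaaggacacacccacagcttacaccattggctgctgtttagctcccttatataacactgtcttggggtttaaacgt
IFI6: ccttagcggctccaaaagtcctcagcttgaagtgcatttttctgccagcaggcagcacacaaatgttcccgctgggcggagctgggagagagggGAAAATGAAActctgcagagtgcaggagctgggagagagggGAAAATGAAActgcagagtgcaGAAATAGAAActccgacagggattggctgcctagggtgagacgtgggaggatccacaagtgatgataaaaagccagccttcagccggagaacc
ISG15: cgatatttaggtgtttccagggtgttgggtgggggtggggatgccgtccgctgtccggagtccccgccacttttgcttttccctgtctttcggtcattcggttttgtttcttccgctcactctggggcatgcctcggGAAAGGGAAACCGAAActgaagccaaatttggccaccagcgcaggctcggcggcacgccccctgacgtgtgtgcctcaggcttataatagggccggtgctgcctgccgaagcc
IFIT1 holds 2 matches on the strand opposite to the gene, IFI6 holds 3 and ISG15 holds 2 that overlap, which makes 16 capitals. A match describes these letters and not a bound site.

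MHC class I presentation, which interferon also induces, had 5 of 15 tested members higher with miR-608 and 0 lower, with a median of 0.23. The share called was 33.3%, below the 41.1% of all rows. The peptide chaperone CANX was higher by 0.48 and its second probe read 0.43, also called. HLA-F (0.83), the immunoproteasome subunit PSMB9 (0.73) and the peptide transporter TAP2 (0.41) were called by their brighter probe. Their second probes read -0.05 for HLA-F and 0.46 for PSMB9, neither called, and -0.53 for TAP2, called in the opposite direction. The TAP2 call was lost when any 1 mimic array was left out. HLA genes resemble each other closely, and a probe may read more than 1 of them.

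p53 target genes carry out cell cycle arrest, DNA repair and apoptosis downstream of the tumour suppressor p53, which A549 cells carry in wild-type form. Of 27 tested members 18 were lower with miR-608 than with miR-552-3p and 1 was higher, with a median of -0.52. Against the control the median was 0.00 for miR-608 and 0.52 for miR-552-3p. GADD45A, a stress protein of growth arrest, read 9.95 and 10.05 on the miR-608 arrays, 11.85 and 11.77 on the miR-552-3p arrays and 10.18 and 10.15 on the control arrays. The miR-552-3p arrays lay highest and the other groups near each other, and the difference was -1.81 ± 0.08 (adjusted p = 0.000345), with a second probe at -1.63, also called. The CDK inhibitor p21 (CDKN1A) read 12.94 and 12.90 on the miR-608 arrays, 14.39 and 14.37 on the miR-552-3p arrays and 13.47 and 13.49 on the control arrays. Its miR-608 arrays lay below the control and its miR-552-3p arrays above it, with a difference of -1.46 ± 0.07 (adjusted p = 0.000369).

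SESN1, a regulator of mTOR complex 1 under stress, differed by -1.66 ± 0.11, and stood at 0.23 from the control for miR-608 and 1.89 for miR-552-3p. The p53 inhibitor MDM2 was higher than the control with both mimics, at 0.45 for miR-608 and 0.98 for miR-552-3p, and differed between them by -0.52 ± 0.09. DDB2, a DNA damage recognition protein, differed by -0.61 ± 0.07, at -0.15 for miR-608 and 0.46 for miR-552-3p. The death receptor FAS and SESN2 were below the control with miR-608, at -0.74 and -1.14, and above it with miR-552-3p, at 0.65 and 0.28. TP53INP1 was the called member in the other direction, at 0.68. GDF15 and BBC3 were not called, at -0.06 and -0.13.

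**Figure D5:**
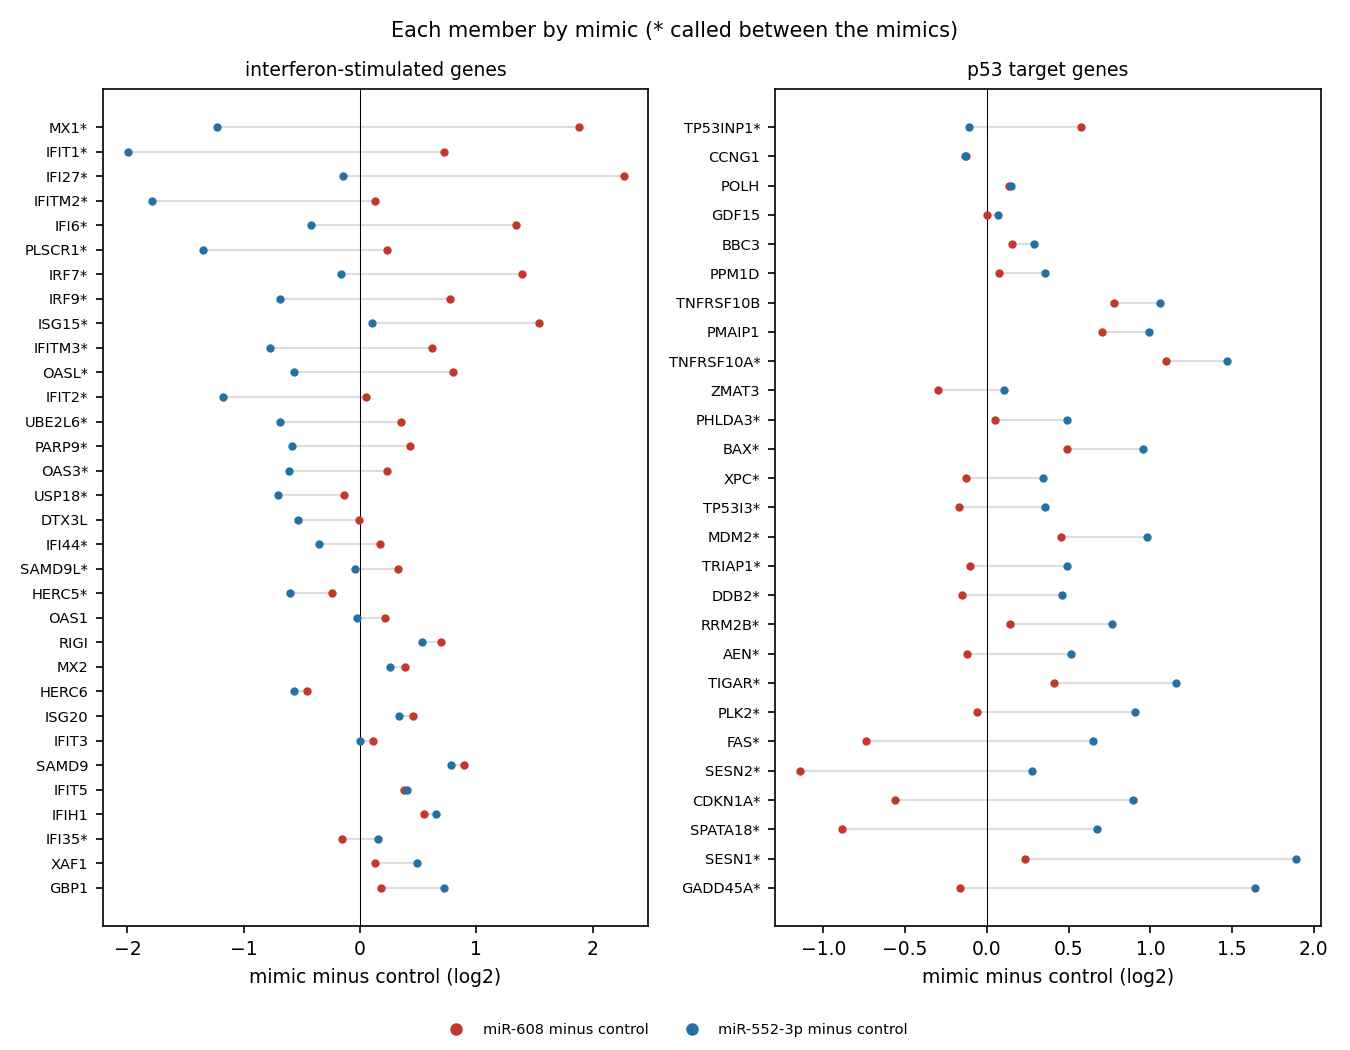
Each row is 1 tested member of the interferon list (left, 32 genes) or the p53 list (right, 27 genes), with its difference from the control on the x axis (log2) for miR-608 in red and miR-552-3p in blue, and an asterisk where it was called between the mimics. Red lies right of blue for most interferon-stimulated genes and left of blue for most p53 targets.

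The cyclin D, RB and E2F axis controls entry into S phase. Of 24 tested members 10 were higher with miR-608 and 2 lower, with a median of 0.24. RBL2, the pocket protein p130, read 11.42 and 11.34 on the miR-608 arrays, 9.84 and 9.94 on the miR-552-3p arrays and 11.34 and 11.42 on the control arrays. The miR-608 and control arrays lay together and the miR-552-3p arrays below, with a difference of 1.49 ± 0.08 (adjusted p = 0.000405). E2F5, a partner of p130, differed by 1.81 ± 0.09 and cyclin D3 (CCND3) by 0.93 ± 0.08. CCND3 lay below the control with both mimics, at -0.67 for miR-608 and -1.60 for miR-552-3p. CDKN1B, the CDK inhibitor p27, was higher by 1.11 ± 0.07 with a second probe at 1.39. In DNA replication 13 of 35 were higher and 4 lower, median 0.17, with medians against the control of -0.17 for miR-608 and -0.41 for miR-552-3p. POLA1, the catalytic subunit of DNA polymerase alpha, differed by 0.79 ± 0.07 and thymidine kinase TK1 by 0.95 ± 0.10. The ribonucleotide reductase subunit RRM2 differed by 0.76 ± 0.08 and the flap nuclease FEN1 by 0.79 ± 0.09. ORC2, of the origin recognition complex, differed by -0.94 ± 0.09 in the other direction. PCNA was not called (0.11).

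Of 35 mitosis genes 3 were higher with miR-608 and 11 lower, median -0.13, and the 11 became 6 without either miR-552-3p array or without miR-608 replicate 2. The share called was 40%, beside 41.1% of all rows. BIRC5, the survivin subunit of the chromosomal passenger complex, read 12.54 and 12.73 on the miR-608 arrays, 10.70 and 10.81 on the miR-552-3p arrays and 12.63 and 12.66 on the control arrays. It was lower with miR-552-3p on both arrays, with a difference of 1.88 ± 0.10 (adjusted p = 0.000376) and a second probe at 1.72. FOXM1, the transcription factor of the mitotic program, read 9.27 and 9.32 on the miR-608 arrays, 11.01 and 11.01 on the miR-552-3p arrays and 11.51 and 11.40 on the control arrays. Its miR-608 arrays lay far below the rest, with a difference of -1.71 ± 0.07 (adjusted p = 0.000345) and a second probe at -1.90. The kinesin KIF20A differed by -0.87 ± 0.07, and CDCA3 has been given above. Cyclin A2 (CCNA2) was lower with miR-608, at -0.66 ± 0.08, while AURKA and PLK1 were not called (-0.02 and 0.17).

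AP-1 is a dimer of FOS, JUN and ATF proteins that drives genes of growth and stress. Of 14 tested members 8 were lower with miR-608 and 2 higher, with a median of -0.36, and medians against the control of 0.23 for miR-608 and 0.66 for miR-552-3p. FOSL1 read 9.94 and 9.91 on the miR-608 arrays, 11.39 and 11.45 on the miR-552-3p arrays and 7.76 and 7.99 on the control arrays. Both mimics lay above the control and miR-552-3p lay above miR-608, with a difference of -1.49 ± 0.10 (adjusted p = 0.00058). ATF3 differed by -0.93 ± 0.08, JUN by -1.04 ± 0.15 and FOSL2 by -1.06 ± 0.11, and FOSB was at least 2.30-fold lower with miR-608. MAFF was higher by 0.71, with other probes at 0.66, called, and -0.32, not called, and FOS was below the control with both mimics and not called between them (0.44).

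YAP and SRF targets, genes of the contractile cytoskeleton and its matrix, had 10 of 19 tested members lower with miR-608 and 5 higher, median -0.29. ANKRD1, a YAP target, read 6.72 and 6.88 on the miR-608 arrays, 8.65 and 8.38 on the miR-552-3p arrays and 6.95 and 6.68 on the control arrays. The miR-608 and control arrays lay together and the miR-552-3p arrays above, with a difference of -1.71 ± 0.14 (adjusted p = 0.00101). CCN1, a secreted matrix protein, differed by -1.11 ± 0.08, tropomyosin TPM2 by -1.03 ± 0.09 and SRF itself by -0.97 ± 0.07. CCN2 and TAGLN were above the control with both mimics and higher with miR-608, by 0.54 and 0.46, with a second TAGLN probe at 0.51 not called. The count of 10 lower members was 7 without miR-552-3p replicate 2.

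Among EGFR family receptors and ligands 3 of 12 were higher with miR-608 and 3 lower, median 0.14, or 50% called beside 41.1% of all rows. The detection filter admitted 2 of the 12 through 1 mimic alone, which favoured their direction. Members stood at both ends of the range. EGFR itself read 9.46 and 9.47 on the miR-608 arrays, 11.47 and 11.61 on the miR-552-3p arrays and 10.39 and 10.42 on the control arrays. Its miR-608 arrays lay below the control and its miR-552-3p arrays above, with a difference of -2.07 ± 0.08 (adjusted p = 0.000313) and a second probe at -0.59, also called. That second probe lay above the control with both mimics, at 0.50 for miR-608 and 1.09 for miR-552-3p. TGFA, a ligand of EGFR, read 9.96 and 9.80 on the miR-608 arrays, 6.96 and 7.22 on the miR-552-3p arrays and 8.50 and 8.71 on the control arrays, the reverse order. LRIG1, which promotes the degradation of EGFR, was higher with miR-608 by 0.90 ± 0.08, and the ligand NRG1 lower, at -0.74 ± 0.07 with other probes at -1.97, called, and -0.64, not called. LRIG1 lay below the control with both mimics, at -0.41 for miR-608 and -1.31 for miR-552-3p. The receptor ERBB3, detected with miR-552-3p on no array, was at least 2.36-fold higher with miR-608. Of 11 other receptor kinases 5 were higher and 3 lower, with FGFR3 given above, FGFR4 at 1.09 ± 0.08 with a second probe at 1.23, MERTK, a receptor for apoptotic cell ligands, at 1.64 ± 0.13 and the collagen receptor DDR1 at 0.73 ± 0.10. The second probes of MERTK and DDR1 were not called, at 0.58 and 0.22.

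The RAS to ERK cascade passes growth signals from receptors to the nucleus, and 5 of its 14 tested members were higher with miR-608 and 0 lower, median 0.16. The share called was 35.7%, below the 41.1% of all rows. MAPK3, which encodes ERK1, read 11.40 and 11.24 on the miR-608 arrays, 10.02 and 9.94 on the miR-552-3p arrays and 10.80 and 10.65 on the control arrays. Its groups did not overlap, with miR-608 highest and miR-552-3p lowest, and the difference was 1.34 ± 0.10 (adjusted p = 0.000702) with a second probe at 1.25. MAP2K1, the kinase directly above ERK, differed by 1.33 ± 0.10 and the adaptor SHC1 by 0.39 ± 0.07, with another SHC1 probe at -0.07, not called. The small GTPase RRAS2 differed by 0.36 ± 0.08, and its call was lost without miR-608 replicate 1 or without either miR-552-3p array. In the ERK feedback and immediate-early list 3 of 15 were higher and 4 lower, median -0.18. PHLDA1 was lower, at -1.56 ± 0.08 with a second probe at -0.11, not called, and SPRY2, an inhibitor of receptor signalling, at -0.81 ± 0.09. The transcription factor ETV5 was higher by 0.84 ± 0.09 and the ERK phosphatase DUSP6 by 0.67 ± 0.07, with a second DUSP6 probe at 0.46 not called.

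Of 13 p38 and JNK kinases 8 were higher with miR-608 and 3 lower, median 0.45, and the 8 became 3 without miR-552-3p replicate 1 and 5 without either miR-608 array. MAP2K6, an activator of p38, read 7.90 and 7.85 on the miR-608 arrays, 5.37 and 5.78 on the miR-552-3p arrays and 8.28 and 8.26 on the control arrays. With miR-552-3p it was below detection on both arrays, at least 4.19-fold under the control, and miR-608 was at least 3.18-fold above miR-552-3p (adjusted p = 0.000517). The JNK1 gene MAPK8 differed by 0.86 ± 0.09, with a second probe at 0.18 not called, while the p38 substrates MAPKAPK2 and MAPKAPK3 were lower with miR-608, at -0.75 and -0.64. In the PI3K, AKT and mTOR list 7 of 19 were higher and 5 lower, median 0.16. The S6 kinase RPS6KB1 was higher by 1.26 ± 0.07 the PI3K catalytic subunit PIK3CD by 1.12 ± 0.08 and the PI3K regulatory subunit PIK3R1 by 1.24 ± 0.09, and AKT1S1, an inhibitor within mTOR complex 1, was lower, at -1.63 ± 0.10.

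The translation repressors of that list split. EIF4EBP1 read 6.60 and 7.28 on the miR-608 arrays, 8.96 and 9.01 on the miR-552-3p arrays and 8.86 and 8.88 on the control arrays. It was low with miR-608 alone, a difference of -2.05 ± 0.22 (adjusted p = 0.00207), whereas its relative EIF4EBP2 was the gene with the widest difference upward and EIF4EBP3 was not called (0.35). EIF4E, the cap-binding protein they hold, was lower with miR-608, at -1.27 ± 0.28 (adjusted p = 0.0186).

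BCL2 family proteins decide between survival and mitochondrial apoptosis, and 6 of 15 tested members were higher with miR-608 and 6 lower, median -0.13. The detection filter admitted 3 of the 15 through 1 mimic alone, which favoured their direction. The pro-apoptotic BIK read 9.64 and 9.65 on the miR-608 arrays, 8.18 and 8.32 on the miR-552-3p arrays and 6.45 and 6.40 on the control arrays, above the control with both mimics and highest with miR-608, a difference of 1.40 ± 0.08 (adjusted p = 0.000445). The survival protein BCL-X (BCL2L1) read 11.62 and 11.57 on the miR-608 arrays, 13.17 and 13.15 on the miR-552-3p arrays and 12.65 and 12.75 on the control arrays, lowest with miR-608 and highest with miR-552-3p, a difference of -1.57 ± 0.07 (adjusted p = 0.000369) with a second probe at -0.95. BID was higher by 1.14 ± 0.08 and the survival protein MCL1 by 1.05 ± 0.10, but 1 of the 2 other BID probes (-0.22) and the other MCL1 probe (0.00) were not called. The pro-apoptotic HRK was at least 1.62-fold lower with miR-608, and BAX was lower, at -0.46 ± 0.09.

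NF-kB targets and cytokines had 6 of 20 tested members higher with miR-608 and 6 lower, median 0.19, with medians against the control of 0.73 for miR-608 and 0.50 for miR-552-3p. Beside CCL20, the cytokine IL32 was higher by 1.61 ± 0.12 with a second probe at 1.30, and the prostaglandin synthase PTGS2 by 1.14 ± 0.07 with a second probe at 1.02. PTGS2 read 12.08 and 12.09 on the miR-608 arrays, 10.96 and 10.92 on the miR-552-3p arrays and 12.15 and 12.11 on the control arrays, low with miR-552-3p alone. The inhibitor NFKBIB was lower with miR-608, at -1.42 ± 0.07, with a second probe at -1.06, and the subunits RELA and NFKB2 were lower, at -1.01 and -1.07, while the inhibitors NFKBIA and TNFAIP3 were higher by 0.75 and 1.06. CXCL8 was far above the control with both mimics, at 1.57 and 1.84, and differed little between them (-0.27).

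In TGF-beta and BMP signalling 6 of 19 were higher with miR-608 and 4 lower, median 0.14. The ligand TGFB2 read 9.16 and 9.30 on the miR-608 arrays, 11.14 and 10.999 on the miR-552-3p arrays and 9.22 and 9.20 on the control arrays, high with miR-552-3p alone, a difference of -1.84 ± 0.09 (adjusted p = 0.000369). Its receptors lay the other way, TGFBR2 at 1.22 ± 0.08 and TGFBR3 at 1.03 ± 0.12. The BMP target ID3 was lower with miR-608, at -1.06 ± 0.07, and the inhibitory SMAD6 was higher, at 0.70 ± 0.07. In the urokinase system and proteolysis list 8 of 11 were higher and 1 lower, median 0.44. Tissue plasminogen activator PLAT read 9.87 and 9.88 on the miR-608 arrays, 8.17 and 8.35 on the miR-552-3p arrays and 8.22 and 8.27 on the control arrays, high with miR-608 alone, a difference of 1.62 ± 0.09 (adjusted p = 0.000405). Urokinase (PLAU) was higher by 1.42 ± 0.09, its receptor PLAUR by 0.76 ± 0.07 with further probes at 0.64 and 0.62, and the protease inhibitor TIMP2 by 1.12 ± 0.09.

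Epithelial junction genes had 3 of 12 higher with miR-608 and 4 lower, median 0.06, and mesenchymal genes 1 of 11 higher and 5 lower, median -0.34. E-cadherin (CDH1) was higher by 0.90 ± 0.07 and EPCAM by 0.53 ± 0.07, with further EPCAM probes at 0.50 and 0.54, while the tight junction protein CLDN1 was lower, at -0.58 ± 0.07 and CLDN3 at least 1.13-fold lower. The transcription factor SNAI2, a repressor of E-cadherin, was at least 3.13-fold lower with miR-608, but its second probe read -0.14 and was not called. The matrix protein tenascin C (TNC) was lower, at -0.89 ± 0.07 and the basement membrane collagen COL4A2 at -1.13 ± 0.12, and CEMIP, a hyaluronan-degrading protein, was higher by 0.88 ± 0.11. CEMIP lay below the control with both mimics, at -1.45 for miR-608 and -2.33 for miR-552-3p. Vimentin (VIM) was not called (0.06).

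Chromatin genes were called in both directions, 50% of the tested Polycomb and 68.8% of the H3K4 members, beside 41.1% of all rows. Of 22 Polycomb proteins 6 were higher with miR-608 and 5 lower, median -0.02, with SCML2 given above, PHC2 at -1.52 ± 0.11, RING1, a ubiquitin ligase for H2A, at -0.86 ± 0.07 and JARID2 at -0.68 ± 0.07. EZH2, SUZ12 and EED, the core of the H3K27 methyltransferase, were not called, at -0.01, 0.13 and 0.04. In the H3K4 methyltransferase complexes 5 of 16 were higher and 6 lower, median -0.08. RBBP5 read 9.10 and 9.12 on the miR-608 arrays, 6.81 and 6.73 on the miR-552-3p arrays and 9.27 and 9.19 on the control arrays, and ASH2L, another core subunit, was higher by 1.27 ± 0.07. The catalytic subunits SETD1A and KMT2B were lower with miR-608, at -1.06 and -0.91, and KMT2A was not called (-0.10). HCFC1 was lower, at -0.72 ± 0.07.

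The metabolic and stress lists had members called in both directions. The share called ran from 35.7% (glycolysis and hypoxia) to 59.1% (NRF2 targets), beside 41.1% of all rows. Cholesterol synthesis had 7 of 19 higher with miR-608 and 3 lower, median 0.24, with TM7SF2 at 1.07 ± 0.07, DHCR7, the last enzyme of one branch of the pathway, at 0.95 ± 0.08 with a second probe at 1.10, INSIG1 at 0.59 ± 0.07, the regulator SREBF1 at -0.72 ± 0.08 with a second probe at -0.71, and HMGCS1 at -0.49. MSMO1 was higher by 0.67, and of its other probes 1 read 0.54, called, and 1 read -0.59, called in the opposite direction. In glycolysis and hypoxia 7 of 28 were higher and 3 lower, median 0.13, among them phosphofructokinase PFKL (1.05 ± 0.12), pyruvate kinase PKM (0.65 ± 0.07, with further probes at 0.60 and 0.63), hexokinase HK1 (0.61 ± 0.07) and the glucose transporter SLC2A3 (0.58 ± 0.07). PKM lay below the control with both mimics, at -0.52 for miR-608 and -1.17 for miR-552-3p. HK2 was lower, at -0.82.

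NRF2 targets had 7 of 22 higher with miR-608 and 6 lower, median 0.07, with the transporter ABCC3 at 1.18 ± 0.07 and the glutathione enzyme GCLM at 0.93 ± 0.07 with a second probe at 1.62. The heme oxygenase HMOX1 was higher by 0.56 ± 0.07 and NQO1 by 0.51, with a second NQO1 probe at 0.44 not called, and the transporter ABCC2 was lower, at -0.61. In the unfolded protein response and ATF4 list 9 of 22 were higher and 3 lower, median 0.18. HSPA5, the main chaperone of the endoplasmic reticulum, was higher by 1.31 ± 0.08, the pseudokinase TRIB3 by 0.97 ± 0.08 and the amino acid transporter SLC7A5 by 0.80 ± 0.07, and PPP1R15A, which restores translation after stress, was lower, at -0.84 ± 0.08. SLC7A5 lay below the control with both mimics, at -0.42 for miR-608 and -1.22 for miR-552-3p. ATF4 itself was not called (-0.04), but 1 of its 2 other probes was called lower, at -0.81.

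The U4 RNAs pair with U6 inside the spliceosome until activation releases them. Of 14 tested members of a list of U4 RNAs and U4/U6 particle genes, which also holds the U1 RNA gene RNU1-1, 7 were lower with miR-608 and 0 higher, median -0.48. RNU4-1 read 8.16 and 9.09 on the miR-608 arrays, 11.54 and 11.40 on the miR-552-3p arrays and 8.40 and 8.03 on the control arrays. Both miR-552-3p arrays lay well above the others, and the miR-608 arrays differed from each other, with a difference of -2.84 ± 0.32 (adjusted p = 0.00226). RNU4-2, a near-identical copy whose probe may read the same RNA, differed by -2.38 ± 0.35, and RNU4ATAC, of the minor spliceosome, was detected with miR-552-3p alone, miR-608 being at least 2.32-fold lower. The particle protein PRPF3 differed by -0.85 ± 0.07 and SNU13 by -0.52 ± 0.07 with a second probe at -1.70, while PRPF8 and PRPF6 were not called (0.07 and 0.00).

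The microRNA machinery had 5 of 16 tested members higher with miR-608 and 2 lower, median -0.03. The Dicer partner TARBP2 was higher by 0.74 ± 0.08 and the silencing scaffold TNRC6B by 0.68 ± 0.10, the helicase MOV10 was lower, at -0.59 ± 0.09 and the deadenylase scaffold CNOT1 at -0.57 ± 0.08, with another CNOT1 probe at 0.05, not called. The Argonaute AGO2 was higher by 0.48 and Dicer (DICER1) by 0.35, with a second DICER1 probe at 0.30 not called. Genes reported elsewhere as targets of miR-608 were lower with miR-608 than with miR-552-3p in 4 of 5 cases, median -0.48. Against the control 2 of the 5 were called lower with miR-608, EGFR and BCL2L1, and the median was -0.21 for miR-608 and 0.39 for miR-552-3p. They were EGFR and BCL2L1, given above, the hyaluronan receptor CD44 at -0.38 ± 0.07 (adjusted p = 0.0106) with other probes at -0.57, called, and -0.41, not called, and the small GTPase CDC42 at -0.48 ± 0.14 (adjusted p = 0.0448) with a second probe at -0.64. Against the control CD44 stood at -0.21 for miR-608 and 0.17 for miR-552-3p, and CDC42 at -0.10 and 0.39, none of these called, while the second CDC42 probe read 0.52 and 1.15. The CDC42 call was lost under 8 alternatives and the CD44 call without miR-608 replicate 2 or without miR-552-3p replicate 2. The cytokine MIF was not called (-0.03). Of the genes reported as targets of miR-552, only RUNX3 was tested, and it was below the control with both mimics and not called between them (0.29).

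Markers of other cell types moved in small numbers, and their part in the results above was not tested. The alveolar type II genes ABCA3 and LAMP3 were higher with miR-608 by 0.78 ± 0.11 and 0.48 ± 0.09, and the surfactant gene SFTPD was not called (-0.19). The monocyte marker CD14 was higher by 1.03 ± 0.08 and the macrophage marker CD68, which epithelial cells also express, was lower, at -0.99 ± 0.12 with other probes at -1.01, called, and -0.15, not called. The B cell marker MS4A1 was not called (-0.11). Of the keratins of the line, KRT8 was higher by 0.53 ± 0.08, KRT19 lower, at -0.38 ± 0.09 and KRT18 not called (-0.27), though its second probe was called lower, at -0.56. The KRT19 call was lost under 7 alternatives, and the LAMP3 call without replicate 1 of either mimic.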

How the data were processed

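The members and gene lists were chosen with earlier results of these data known. Per the file headers, the authors deposited a signal intensity for each probe and array and a detection p-value beside it, and per the submitters' processing notes these came from GenomeStudio 2011.1. Beside them the authors deposited log2 values for 17751 probes, which match quantile-normalised log2 signals of probes detected on 4 or more of the 6 arrays, each array having a median of 9.53. A background subtraction by the authors is neither stated nor denied in the labels or headers, and the lowest signal per array was 61.77 to 77.53.

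The signals were background-corrected with negative controls inferred from the detection p-values, offset by 16, quantile normalised and log2 transformed by neqc (limma 3.58.1, R 4.3.3), which understates changes of dim probes. After the detection filter 27918 probes were left out. GEO's platform annotation paired 30112 probes with 1 symbol, 8 with several and left 17199 unlisted. Against the RefSeq table of GRCh38.p14, 30073 gene identifiers matched and 39 failed to match, with 0 changed symbols. The kept probe with the highest mean stood for a gene, and 2918 genes had several.

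One limma model (lmFit, eBayes) with 3 residual and 5.21 total degrees of freedom was fitted over the 6 arrays, with two-sided tests at 0.05 after adjustment by Benjamini and Hochberg across the 15771 rows. The text names the 10 highest and 10 lowest called genes whose arrays do not overlap, the 6 largest of each opposite or one-mimic set, from each list up to 4 called members, taken by smallest p, and all members of the lists of published targets. Arrays with the same replicate number did not deviate together (correlation of deviations -0.000419 between the mimics, -0.0341 and 0.041 against the control), so no pairing was used. On simulated data with 200 changed genes among 16396 rows, the steps recovered 73.8% of differences of 1 and 95.3% of differences of 2 on the log2 scale, with 9 false calls. The changed genes were all detected on all 6 arrays, and noise was drawn independently for each probe and array. These rates therefore do not cover dim probes, spread shared between probes, or data with 41.1% of rows called. Alternatives covered background, offset, filters, the authors' log2 values, the spread estimate, the arrays in the fit, a replicate block, the probe kept, thresholds and leaving out each array.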

Additional observations from a re-analysis of the deposited data

How the results depend on the processing

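The count of 6474 called rows lay between 4472 with no detection filter (37253 rows tested) and 7510 with an intensity trend, and was 1392 when a difference of at least 1 on the log2 scale was also required. The share of called rows that were higher with miR-608 stayed between 49.2% and 53.1%. Every setting used quantile normalised values, which draw this share toward balance, so it is not read as a result about the mimics. When each array was left out in turn, 4551 to 6009 rows were called, with 15 to 18 interferon-stimulated genes higher, 16 to 18 p53 targets lower, 9 to 13 replication genes higher, 6 to 8 AP-1 subunits lower, 7 to 9 YAP and SRF targets lower, and 144 to 149 of the 152 called genes among the 154 named. Leaving out an array gave 160 to 178 rows up with miR-608 and down with miR-552-3p, 114 to 130 the other way, 67 to 79 up and 152 to 178 down with miR-608 alone, and 73 to 82 up and 210 to 235 down with miR-552-3p alone. Counts in smaller lists moved more. Leaving out an array lowered the p38 and JNK kinases higher with miR-608 to 3 (without miR-552-3p replicate 1), the RAS to ERK, Polycomb and H3K4 members higher to 2 each, glycolysis and hypoxia higher to 4, cyclin, RB and E2F members higher to 6 and unfolded protein response genes higher to 5 (both without miR-552-3p replicate 1), MHC class I and microRNA machinery members higher to 3 each, NRF2 targets lower to 2, PI3K list members lower to 2 (without miR-552-3p replicate 1), BCL2 family and mesenchymal members lower to 3 each, epithelial junction genes and published miR-608 targets lower to 2 each, and replication, cholesterol, glycolysis and other receptor kinase members lower to 1 each. SHC1 lost its call without miR-608 replicate 1 or miR-552-3p replicate 2. Without 1 control array the calls between the mimics equal those of the 4 mimic arrays only, since a lone array adds nothing to the spread. The replicate numbers do not pair the arrays, and with a replicate block 5951 rows and 150 of the named genes were called.

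The opposite and one-mimic sets depended on the scale. With the authors' log2 values they held 75 rows up with miR-608 and down with miR-552-3p, 46 the other way, 21 up and 80 down with miR-608 alone, and 35 up and 115 down with miR-552-3p alone. Without background correction these were 75, 47, 22, 82, 41 and 117. Differences of dim probes are smaller on those scales by construction. With a distance of at least 0.25 the opposite sets held 661 and 530 rows, and with the other mimic within 0.5 of the control the one-mimic sets held 134 and 265 for miR-608 and 163 and 364 for miR-552-3p. With the dimmest kept probe of each gene, 8 named genes changed sign: BID to -0.22, CALB2 to 0.43, CNOT1 to 0.0465, HLA-F to -0.0493, MCL1 to -0.00392, MSMO1 to -0.59, SHC1 to -0.0735 and TAP2 to -0.53. The cause was not tested, and 11 others lost their call there. COL1A1 lost its call under 14 alternatives, CDC42 under 8 and KRT19 under 7. Probes near the detection limit give bounds only.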

Other observations

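Among small noncoding RNAs, small nucleolar RNAs were lower with miR-608 than with miR-552-3p in many cases and small Cajal body RNAs in few. Families were gathered by gene symbol after the values were seen, so the counts are a description with no test, beside 20.8% of all rows higher and 20.3% lower. Of 41 box H/ACA small nucleolar RNAs, which guide pseudouridylation of ribosomal RNA, 31 were lower with miR-608 and 0 higher, with a median difference of -0.83. The median against the control was -0.32 for miR-608 and 0.64 for miR-552-3p. Of 51 box C/D small nucleolar RNAs, which guide ribose methylation, 25 were lower and 2 higher, with a median of -0.69 and medians against the control of -0.42 for miR-608 and 0.32 for miR-552-3p. Of 14 host genes of small nucleolar RNAs 5 were lower and 0 higher, with a median of -0.19. Of 11 small Cajal body RNAs 1 was lower and 1 higher, with a median of -0.11 and medians against the control of 0.73 for miR-608 and 0.39 for miR-552-3p. Of 8 spliceosomal RNAs, among them U4 RNAs already given, 6 were lower and 1 higher. Members of these families share sequence with each other, and a probe may read more than 1 of them.

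Among protein families, cytosolic ribosomal proteins showed few differences, with 5 of 71 higher with miR-608 and 6 lower, and a median of -0.01. Tubulins had 6 of 20 higher and 0 lower, with a median of 0.23. Core and linker histone genes had 11 of 33 higher and 2 lower, and proteasome subunits 7 of 35 higher and 1 lower. Solute carriers, the transporters of small molecules across membranes, had 62 of 187 higher and 39 lower. RAB small GTPases, which direct vesicle traffic, had 15 of 44 higher and 6 lower, and ZNF zinc finger genes had 41 of 293 higher and 56 lower. Beside 41.1% of all rows, the share called was 15.5% for cytosolic ribosomal proteins, 22.9% for proteasome subunits and 30% for tubulins. It was 33.1% for ZNF genes, 39.4% for histone genes, 47.7% for RAB GTPases and 54% for solute carriers.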
